A study of Mus musculus with 23 samples.

Results

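Mature microRNAs (miRNAs) were compared between mouse retinas floxed for Dicer1 (DicKO) and wild-type (WT) retinas. The comparison holds 6 samples, 3 DicKO and 3 WT, out of 23 samples in the series, chosen by their labels, and all 522 assays of the deposited table. The 6 samples belong to the first of 2 profiling sets, which also holds 3 DKO and 4 DKO_DicKO samples, 13 in all. The DicKO samples are titled "Dicer1 lox/lox", and their titles name no Cre, so which cells lost Dicer1 is not given. WT samples carry no named allele. DKO samples are titled with Chx10Cre, Rb lox/lox and p107 -/-, and DKO_DicKO samples carry Dicer1 lox/lox in addition. Chx10Cre is a Cre driver active in retinal progenitor cells. All groups are total RNA from fresh primary retina of mixed background strain. Age, litter and whether each sample is 1 animal are not stated, so p-values measure the spread between these samples, which may be technical. Dicer1 mRNA is not measured by the assay, and how complete its loss was could not be checked.

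Dicer1 is the ribonuclease that cuts hairpin precursors into the short duplex from which a mature miRNA is loaded onto an Argonaute protein. A miRNA then finds its targets mainly through its seed, the bases near its 5′ end, so miRNAs with the same seed form a family. Mature miRNAs can outlive the enzyme that made them, and their lifetimes differ, so loss of Dicer1 need not lower all of them equally at a given time. In retina, miR-9 is known from neural progenitors, the miR-183, miR-96 and miR-182 cluster from photoreceptors, miR-124 from neurons, and miR-204 and miR-211 from pigment epithelium and ciliary body.

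The sequences that carry the comparison are the miR-17 seed family, of which every tested member was lower, and other miRNAs on which the results turn. They are RefSeq mature sequences (GRCm38.p6), 5′ to 3′, with the seed (bases 2 to 8) in capitals.
miR-17: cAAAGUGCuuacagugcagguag
miR-106a: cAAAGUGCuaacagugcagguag
miR-20a: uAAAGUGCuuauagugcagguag
miR-20b: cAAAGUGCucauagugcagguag
miR-93: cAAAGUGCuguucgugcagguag
miR-106b: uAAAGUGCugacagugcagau
These 6 share the seed AAAGUGC and come from 3 clusters. The miR-17 and miR-20a sequences lie in the Mir17 and Mir20a genes at chr14:115043684-115043706 and chr14:115044183-115044205 on the plus strand. The miR-106a and miR-20b sequences lie in Mir106a and Mir20b on the minus strand of the X chromosome, at chrX:52742541-52742563 and chrX:52742159-52742181. The miR-93 and miR-106b sequences lie in Mir93 and Mir106b, at chr5:138165574-138165596 and chr5:138165787-138165807, also on the minus strand. The sequences differ from each other at few bases outside the seed, and whether an assay also reads its neighbour was not tested.

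The same clusters encode members with other seeds, shown because they also moved.
miR-19a: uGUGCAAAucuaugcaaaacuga
miR-19b: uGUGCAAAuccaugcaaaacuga
miR-92: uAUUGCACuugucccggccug
miR-25: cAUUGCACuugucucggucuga
The next sequences are of miR-9 and its opposite arm (written miR-9#), of the miR-99 and miR-100 family, and of miR-29a, which went against the rest.
miR-9: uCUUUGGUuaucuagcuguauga
miR-9#: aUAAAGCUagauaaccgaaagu
miR-99a: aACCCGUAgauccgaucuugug
miR-99b: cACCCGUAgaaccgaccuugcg
miR-100: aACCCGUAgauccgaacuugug
miR-29a: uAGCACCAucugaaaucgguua

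The value of each assay is its quantification cycle (Cq): a sample with less template needs more cycles, about 1 more for 2 times less. Fewer miRNAs were detected (Cq 32 or lower) without Dicer1, and those still detected came up later. In WT replicates 1, 2 and 3, 178, 228 and 170 assays were detected. In DicKO replicates 1, 2 and 3, 112, 169 and 91 were detected, so that the groups did not overlap, although DicKO replicate 2 lay 1 assay below WT replicate 3. The means were 192 ± 31.4 (SD, n = 3) in WT and 124 ± 40.4 (SD, n = 3) in DicKO, a difference of -68 (two-sided exact permutation test, p = 0.1, the smallest that 3 against 3 allows).

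Timing moved in the same direction as detection. Over the 61 assays detected in all 13 samples of the set, the mean Cq was 25.2, 23.3 and 24.99 in WT and 27.6, 25.4 and 29.1 in DicKO. The group means were 24.5 ± 1.04 and 27.3 ± 1.84 cycles (SD, n = 3 each), 2.87 cycles apart, with every DicKO sample later than every WT sample (exact permutation test, p = 0.1; adjusted over these 2 tests, 0.1). Replicate 2 was the earliest sample of each group.

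**Figure D1:**
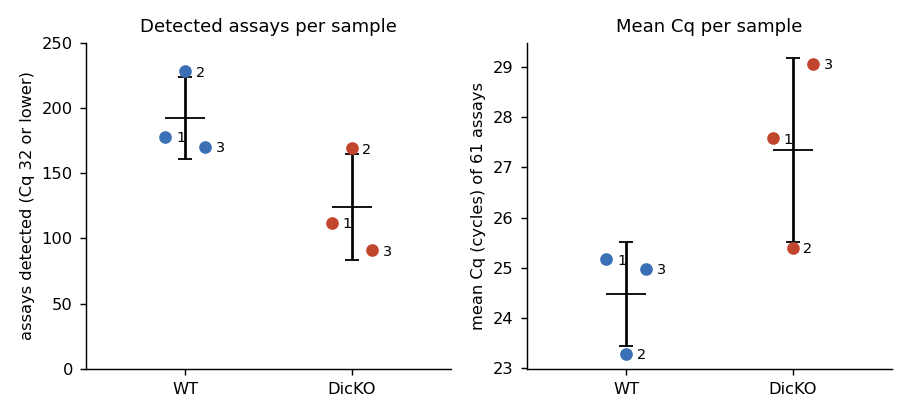
Number of assays detected at Cq 32 or lower (left) and mean Cq in cycles of the 61 assays found in all 13 samples (right), for WT and DicKO. Points are samples with their replicate number, and bars are the mean and SD of 3; the DicKO samples had 91 to 169 detected assays against 170 to 228 in WT, and mean Cq values of 25.4 to 29.1 against 23.3 to 25.2.

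No small RNA control is in the table, so a lower level of miRNAs per unit of RNA and a smaller amount of RNA cannot be told apart from this shift. The assay named miR-720, whose sequence is known as a tRNA fragment and not as a Dicer1 product, shifted by a similar amount. It read 23.6, 21.5 and 23.8 in WT and 27.3, 24.3 and 28.1 in DicKO, 3.60 cycles later (limma, adjusted p = 0.0448). That 1 assay does not fix the amount of RNA in a sample, and the part of input in the shift was not tested further.

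Detection was lost in 1 direction. Of the 158 assays detected in all 3 WT samples, 85 were detected in all 3 DicKO samples, 60 in 1 or 2, and 13 in none. The reverse was rare: 3 assays were detected in all 3 DicKO but not in all 3 WT samples (miR-331-5p, miR-760 and miR-875-5p, named after their values were seen), and 0 were detected in all DicKO and no WT sample. In all 6 samples, 286 assays were undetermined.

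The 13 miRNAs lost in every DicKO sample were, from the earliest in WT, miR-17, miR-106a, let-7i, miR-93, miR-532, miR-20b, miR-495, miR-379, miR-28, miR-424, miR-350, miR-667 and miR-467a. Of the first 6, 4 belong to the miR-17 seed family. In the DKO samples, 12 of the 13 were again detected in all 3, and 9 of those 12 were detected in no DKO_DicKO sample. Over all assays, 16 of the 156 detected in all 3 DKO samples were in no DKO_DicKO sample. An undetermined well is not proof of a low level, because 31 assays (let-7a among them) were undetermined in all 13 samples of the first set while all samples of the second set read them at Cq 30 or earlier.

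Among the 85 assays detected in all 6 samples, the mean Cq was later in DicKO for 76 and earlier for 9. The median difference was 2.89 cycles (quartiles 1.90 and 3.66), from -1.78 for miR-673 to 5.04 for miR-19b. In 43 assays every DicKO sample was later than every WT sample, in 4 every DicKO sample was earlier, and in 38 the groups overlapped. An assay that was late in WT could show only a small delay within the limit of Cq 32.

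In a limma fit of unscaled Cq, with undetermined wells at Cq 32, 99 of 161 assays tested (61.5%) were later in DicKO at an adjusted p under 0.05. None was earlier (0 of 161, 0%; by the same limma fit 12 had an earlier mean, 0 of them at an unadjusted p under 0.05). Of the 99, 44 were detected in all 3 DicKO samples, 43 in 1 or 2, and 12 in none. The count of 99 was 31 without WT replicate 2, 63 without DicKO replicate 1 and 43 without DicKO replicate 3, with 0 earlier each time.

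To ask which miRNAs moved more or less than the rest, each Cq was subtracted from the sample's mean Cq of the 61 assays. This relative level is on a log2 scale, 0 is the mean of those assays, and it holds no shift common to them. Values below a floor of -2.94, and undetermined wells, were set to the floor, which shrinks differences of late assays. It raised 264 of the 576 detected values in WT and 101 of the 372 in DicKO. Of 133 assays tested in limma, 48 (36.1%) differed at an adjusted p under 0.05: 38 (28.6%) were lower and 10 (7.52%) higher in DicKO. Of the 38, 17 were detected in all 3 DicKO samples, 16 in 1 or 2, and 5 in none. All 38 were also among the 99 later on the unscaled scale.

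The split between lower and higher calls depends on the reference. With the median in place of the mean of the 61 assays, 51 were lower and 3 higher, and with miR-720 as the only reference (added after the data were seen), 10 were lower and 16 higher. The count of 48 was 27 without WT replicate 2, 25 without DicKO replicate 1 and 29 without DicKO replicate 3. Of 31 lower calls followed through the alternatives, 8 passed in all in which they could be tested: miR-17, miR-106a, miR-20a, miR-93, let-7i, miR-100, miR-149 and miR-9. Of the alternatives that left out no WT or DicKO sample, miR-9 was tested in 11, miR-100 in 10 and the rest in 9. The rest and miR-100 had undetermined DicKO wells, and skipped settings that give such wells no value. miR-106b, miR-125a-5p, miR-181a and miR-19b, detected in all 6 samples, passed in 10 of these 11 and in all 6 fits that left out a sample. Their differences were smallest with miR-720 as reference, at -0.90, -1.22, -0.37 and -1.44. Their highest adjusted p over the alternatives was 0.218, 0.115, 0.467 and 0.0821 (limma), so these calls depend on the setting.

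**Figure D2:**
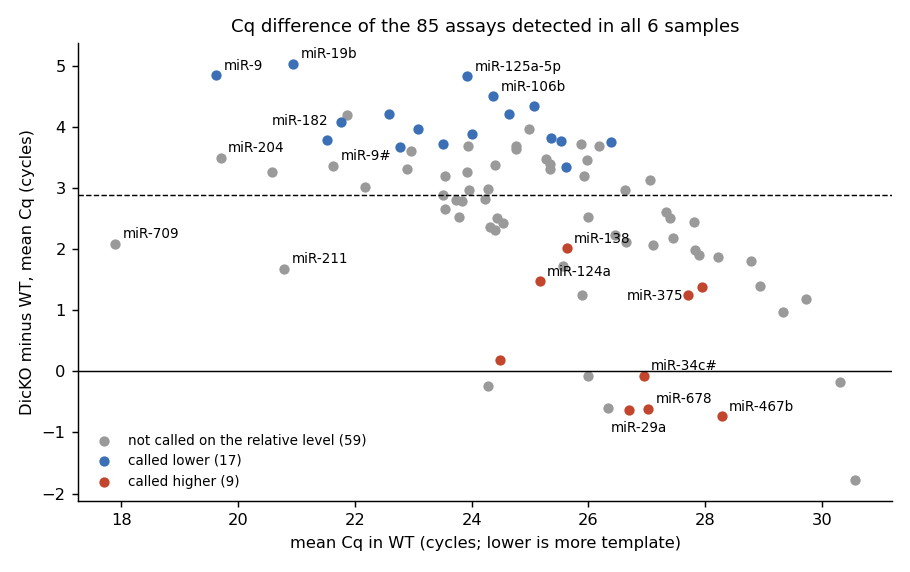
Difference in mean Cq, DicKO minus WT in cycles, against the mean Cq in WT, for the 85 assays detected in all 6 samples; colours give the call on the relative level, and the dashed line is the median of 2.89 cycles. Most assays lie above 0 (later in DicKO); miR-9 and miR-19b were among the earliest in WT and among the most delayed, and miR-29a and miR-678 lay below 0.

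The miR-17 seed family, which promotes proliferation and is repressed as cells differentiate, was lower throughout. All 6 assays were lower on the relative scale and later on the unscaled scale (median 7.21 cycles later, against 3.06 over all 161 assays tested), where 28.6% and 61.5% of all assays tested were lower and later. miR-17 read 22.8, 21.8 and 23.1 in WT and was undetermined in all 3 DicKO samples. Its relative level was at least 4.84 lower (SE 0.25; limma, adjusted p = 1.19e-07), and its Cq at least 9.42 cycles later, provided that no undetermined well was a failed reaction. An SE is too small where a whole group sits at the floor.

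miR-106a, the X-linked relative, behaved alike. Its Cq was 23.6, 21.8 and 22.95 in WT, and no DicKO sample gave a value, a relative difference of at least 4.64 (SE 0.16; limma, adjusted p = 3.55e-09). miR-20a read 24.4, 21.7 and 23.4 in WT and was found only in DicKO replicate 2, at 28.1. Both miR-93 (26.1, 23.6 and 25.5 in WT) and miR-20b (27.9, 24.9 and 27.1 in WT) were undetermined in DicKO. miR-106b alone was measured in all 6 samples, at 25.4, 23.0 and 24.7 in WT and 28.8, 26.6 and 31.2 in DicKO, with no overlap. It was 1.63 lower on the relative scale (SE 0.27; limma, adjusted p = 0.00147), so in the 1 member where no floor value entered, the fall was smaller than that of miR-17, which lies in another cluster.

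Beside loss of Rb and p107, miR-17, miR-106a, miR-93 and miR-20b were again undetermined in all 4 DKO_DicKO samples, whereas miR-17 read 23.1, 22.2 and 23.5 in the 3 DKO samples. miR-20a was detected in 3 of the 4 DKO_DicKO samples, at 29.0, 27.2 and 30.5, and miR-106b in all 4. In the difference between the 2 Dicer1 effects, none of the 6 family members was among the 8 assays called, which does not show that the effects are equal.

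The other seeds of these clusters followed. miR-19b, the pro-survival member of the miR-17~92 cluster, read 21.9, 19.7 and 21.2 in WT and 26.3, 23.8 and 27.9 in DicKO. Its delay of 5.04 cycles was the longest of the 85 assays measured throughout, and its relative level fell by 2.17 (SE 0.42; limma, adjusted p = 0.00323). miR-19a read 27.1, 24.3 and 25.6 in WT, and 30.6 and 28.3 in DicKO replicates 1 and 2 with none in replicate 3, a relative difference of -1.76 (adjusted p = 0.0235). miR-92 was at 23.6, 21.2 and 22.9 in WT and 26.9, 24.9 and 28.6 in DicKO, 1.34 lower in relative level (adjusted p = 0.029). Of the 6 fits that left out a sample, miR-19b passed in 6, miR-19a in 2 and miR-92 in 1. miR-25, with the seed of miR-92, was 3.99 cycles later (adjusted p = 0.00516) but did not pass on the relative scale (-1.02, adjusted p = 0.0505).

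Over the list of the miR-17~92, miR-106b~25 and miR-106a to miR-363 clusters, 13 of 20 assays were detected in any of the 6 samples and 11 were tested. Of these, 10 were lower and 0 higher in relative level (median difference -1.76, against -0.25 over all 133), and 11 were later in Cq. The 133 include late assays held near 0 by the floor. miR-18a and miR-18b, of the same clusters, had no tested assay.

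**Figure D3:**
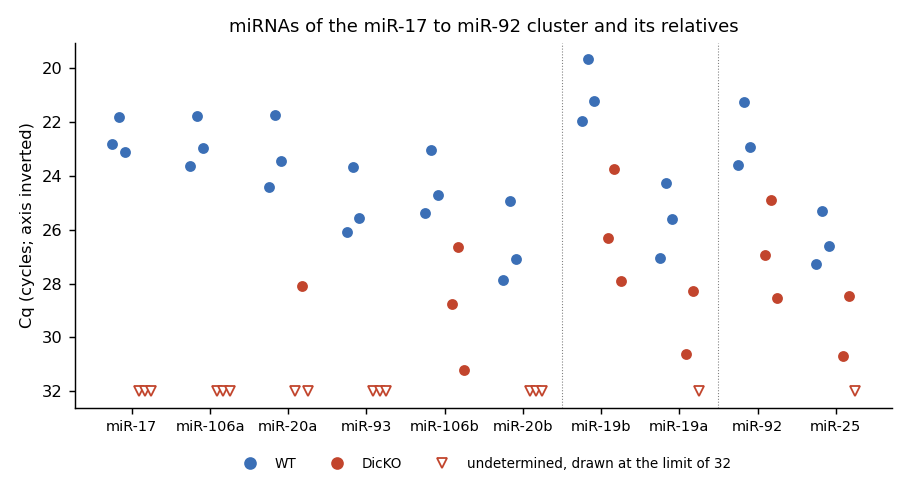
Cq in cycles (axis inverted, so higher is more template) in each WT and DicKO sample for the miR-17 seed family, the miR-19 pair and the miR-92 pair, separated by dotted lines; open triangles are undetermined wells, drawn at Cq 32. miR-17, miR-106a, miR-93 and miR-20b have no DicKO value, and in the members that do, each DicKO sample lies below all WT samples.

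The let-7, miR-99/100 and miR-125 families, which time development and rise as progenitors mature, were the second group that fell. In this list 11 of 19 assays were tested, of which 9 were lower, 0 higher and 2 not called in relative level (median difference -1.96). All 11 were later in Cq, by a median of 4.82 cycles. Over all assays tested, 28.6% were lower in relative level (median -0.25) and 61.5% later (median 3.06 cycles). let-7i read 25.1, 22.9 and 25.1 in WT and was undetermined in DicKO, at least 3.06 lower in relative level (SE 0.58; limma, adjusted p = 0.00323). let-7e, among the 10 earliest assays in WT, read 22.7, 20.5 and 22.4 there, and 26.9 and 23.5 in DicKO replicates 1 and 2, with no value in replicate 3.

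Members of the let-7 family, which share the seed GAGGUAG, were unequal. let-7c was 4.20 cycles later (22.2, 20.7 and 22.7 in WT; 26.3, 23.9 and 28.01 in DicKO), and its relative difference of -1.33 did not pass (adjusted p = 0.0936). let-7g was nearest to the common shift, 2.98 cycles later (24.9, 23.0 and 24.9 in WT; 27.6, 25.2 and 28.9 in DicKO) with a relative difference of -0.12 (adjusted p = 0.617). let-7b, let-7d, let-7e and let-7i were called lower; of these, let-7i passed in all 6 fits that left out a WT or DicKO sample, let-7b in 2, and let-7d and let-7e in 1 each.

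miR-99a, miR-99b and miR-100, which share the seed ACCCGUA, were all lower. miR-100 read 25.3, 23.2 and 25.3 in WT, 29.7 and 27.2 in DicKO replicates 1 and 2, and gave none in replicate 3. It fell by 2.18 in relative level (SE 0.28; limma, adjusted p = 0.000291). miR-99a fell by 2.08 and miR-99b by 1.35 (adjusted p = 0.00224 and 0.0456), and with 1 sample left out miR-100 passed in 6 of 6 fits, miR-99a in 5 and miR-99b in 2. In WT, miR-99b was the member whose replicate 2 led least, at 24.3, 24.1 and 25.6.

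miR-125a-5p, from the same cluster as let-7e and miR-99b, read 24.5, 22.8 and 24.5 in WT and 29.0, 26.5 and 30.8 in DicKO. The relative level fell by 1.96 (SE 0.34; limma, adjusted p = 0.00178). Its seed partner miR-125b fell by less, 0.80 (adjusted p = 0.0209), and passed in 2 of the 6 fits that left out a sample. The test of the difference between the members was not run.

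Of the neural miRNAs, miR-9 carried the clearest change. It had the second lowest mean Cq in WT, 20.4, 18.4 and 20.1, and read 24.8, 22.3 and 26.4 in DicKO, 4.85 cycles later. On the relative scale it was 4.78, 4.92 and 4.86 in WT and 2.77, 3.14 and 2.70 in DicKO, a fall of 1.98 (SE 0.20; limma, adjusted p = 4.49e-05). The 3 samples of each group lay close together, and the groups did not overlap. miR-9#, the opposite arm of the same hairpins, was 3.36 cycles later (22.5, 20.3 and 22.1 in WT; 25.2, 22.9 and 26.95 in DicKO) and was not called on either scale (relative difference -0.49, SE 1.48). In the same fit it read 26.1 in DKO replicate 1, against 20.2 and 21.5 in DKO replicates 2 and 3, and was undetermined in DKO_DicKO replicate 4. Without those 2 samples, an alternative added after the data were seen, the relative difference of miR-9# was -0.65 and passed (limma, adjusted p = 0.035).

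miR-149 read 22.7, 20.7 and 22.9 in WT and was found in DicKO only in replicate 2, at 25.7. It was 4.46 lower in relative level (SE 0.92; limma, adjusted p = 0.00458). miR-124a, a miRNA of differentiated neurons, went against these: at 26.3, 23.4 and 25.8 in WT and 26.9, 24.3 and 28.8 in DicKO it was 1.47 cycles later, less than the common shift, and so 1.40 higher in relative level (SE 0.46; limma, adjusted p = 0.0401). Likewise miR-138, also neuronal, was 2.01 cycles later and 0.85 higher in relative level (adjusted p = 0.0316). On the unscaled scale neither was called (adjusted p = 0.277 and 0.117). Of the 8 neural assays tested in relative level, 2 were lower and 2 higher (median -0.41), against 28.6% lower and 7.52% higher over all assays. The calls of miR-124a and miR-138 each passed in 2 of the 6 fits that left out a sample.

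In the sensory cluster that marks photoreceptors, miR-182 fell and the others did not pass. miR-182 read 22.7, 20.4 and 22.1 in WT and 26.2, 23.7 and 27.6 in DicKO, 1.22 lower in relative level (SE 0.42; limma, adjusted p = 0.0456). That call passed in 0 of the 6 fits that left out a WT or DicKO sample (-1.35 to -1.01). miR-183 read 25.7, 24.5 and 26.5 in WT and 27.7, 24.95 and 29.2 in DicKO, so the groups overlapped, with a relative difference of 1.14 (adjusted p = 0.0888). The differences of miR-96 and miR-183# were 0.80 and -0.10 (adjusted p = 0.0505 and 0.968). The 3 hairpins lie next to each other on chromosome 6, on 1 strand.

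miR-204 and miR-211 share the seed UCCCUUU and were both among the 10 earliest assays in WT.
miR-204: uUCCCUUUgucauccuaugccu
miR-211: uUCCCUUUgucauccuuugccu
miR-204 read 20.1, 18.7 and 20.3 in WT and 23.4, 21.3 and 24.9 in DicKO, 3.50 cycles later (adjusted p = 0.00918). miR-211 read 21.0, 19.5 and 21.9 in WT and 22.6, 20.2 and 24.6 in DicKO, 1.68 cycles later, and was not called (adjusted p = 0.219). In relative level neither passed (-0.63 and 1.19, adjusted p = 0.063 and 0.089).

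**Figure D4:**
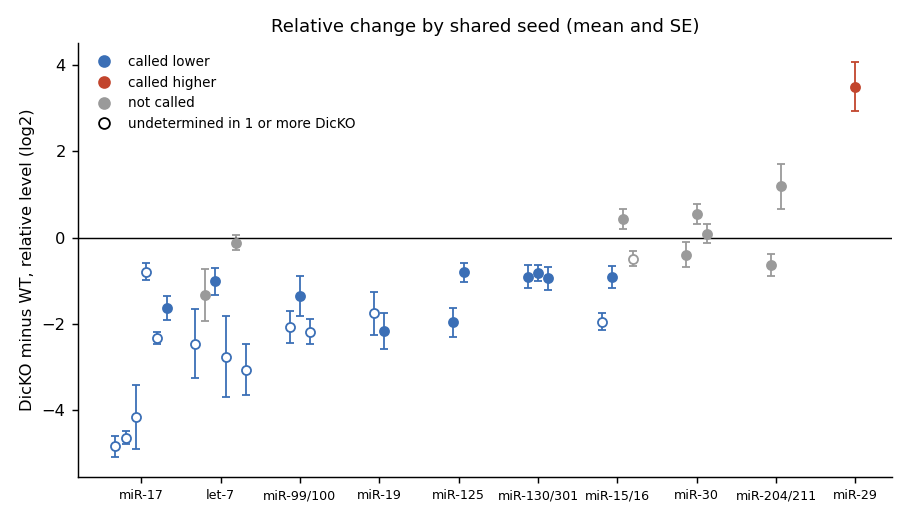
Difference in relative level (log2, DicKO minus WT) with its limma standard error for the tested members of 10 seed families; open points were undetermined in at least 1 DicKO sample, so that floor values enter their mean. The miR-17, miR-99/100, miR-19, miR-125, miR-130 and miR-301 members all lie below 0 and were called lower, the 3 miR-30 members were not called, and miR-29a lies at 3.50.

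Other families were lower by smaller amounts. miR-130a, miR-130b and miR-301, with the seed AGUGCAA, were 0.90, 0.83 and 0.94 below WT in relative level, and each passed (adjusted p = 0.0259, 0.00616 and 0.0219). miR-16, which holds back the cell cycle, read 22.5, 20.2 and 21.95 in WT and 25.5, 23.0 and 27.4 in DicKO, 0.92 lower (adjusted p = 0.0209). Its seed partner miR-15b, found in DicKO only in replicate 2, had all DicKO values at the floor and was at least 1.95 lower (adjusted p = 4.57e-05), whereas miR-195 had a difference of 0.44 (adjusted p = 0.148). miR-181a was 1.10 lower (adjusted p = 0.00147). miR-130b passed in 5 of the 6 fits that left out a sample, miR-130a, miR-301 and miR-16 in 2 each, and miR-15b and miR-181a in all 6. Outside these families, miR-708 was 1.48 lower (limma, adjusted p = 0.0407) and passed in 1 of the 6. Its Cq was 4.35 cycles later (adjusted p = 0.00516). miR-7# was 3.97 cycles later (adjusted p = 0.0117) and was not called in relative level (-0.87, adjusted p = 0.399).

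The miR-30 family moved with the common shift. Its 6 tested assays were 2.32 to 3.26 cycles later, 0 were called in relative level, and their median relative difference was -0.14. miR-30c, the earliest of them, read 21.2, 19.3 and 21.2 in WT and 24.2, 21.5 and 25.8 in DicKO. In 3 of the 6 the delay itself passed, near the share of 61.5% over all assays. miR-709, the earliest assay in both groups, read 18.4, 16.8 and 18.6 in WT and 20.04, 18.3 and 21.6 in DicKO. It was 2.09 cycles later and was called on neither scale (adjusted p = 0.192 in relative level).

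The Dlk1-Dio3 cluster, a large imprinted group expressed in neurons, had 16 tested assays on the unscaled scale, of which 9 were later, near the share of 61.5% over all assays, and 11 on the relative scale, of which 0 were lower and 1 (miR-376b#) was higher. miR-127, the earliest, read 24.6, 23.4 and 25.1 in WT and 27.98, 25.7 and 29.6 in DicKO, 3.37 cycles later (adjusted p = 0.0132). miR-495, miR-379 and miR-667 of this cluster were undetermined in all DicKO samples. The other 5 of the 16 lay at the floor in all samples of the relative fit and could not be tested there.

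A few miRNAs are known to be made with steps that skip part of the standard pathway, and 2 such assays, miR-320 and miR-484, were tested. Both still depend on Dicer1. miR-484 read 24.4, 22.1 and 24.0 in WT and 27.5, 25.1 and 29.0 in DicKO, 3.72 cycles later. miR-320 read 25.9, 24.2 and 25.9 in WT and 29.1, 26.4 and 30.7 in DicKO, 3.38 cycles later. Both delays passed (adjusted p = 0.0086 and 0.0144).

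Both arms of 1 hairpin were in the table for 122 pairs, and in 12 pairs both were detected in all WT samples. No pair was called in opposite directions, but few could have been. In relative level both arms were called only in the miR-130b and miR-93 pairs, all of them lower. There miR-126#, miR-340#, miR-384-3p and miR-872# were not tested. In unscaled Cq no assay was called earlier, so opposite calls could not occur. In the miR-532 pair the arm named miR-532 was undetermined in all DicKO samples and miR-532-3p was found in 1. In the miR-93 pair miR-93 was likewise undetermined and miR-93# found in 1, although miR-93 was the earlier arm in WT (mean Cq 25.1 against 26.4).

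Against the common shift to later Cq, miR-29a was the only one of the 10 higher calls that held in every alternative that could be run. It read 27.2, 25.3 and 27.5 in WT and 26.2, 24.2 and 27.8 in DicKO, so the groups overlapped in unscaled Cq, with DicKO 0.63 cycles earlier on average (adjusted p = 0.617). Set against the other assays of the same samples it was higher: -2.05, -2.04 and -2.55 in WT and 1.34, 1.25 and 1.27 in DicKO. The difference of 3.50 (SE 0.56; limma, adjusted p = 0.00142) was the largest rise of the 133 assays. miR-29a is known as a miRNA that increases with maturation and that lowers collagen and DNA methyltransferase transcripts.

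The other 9 higher calls were smaller or less stable. miR-678, miR-467b and miR-34c# were 3.23, 2.73 and 2.71 higher (adjusted p = 0.0134, 0.0247 and 0.0407), and their unscaled Cq stayed at one level: miR-678 read 27.2, 27.0 and 26.9 in WT and 26.2, 26.5 and 26.6 in DicKO. miR-188-5p and miR-760 were 2.68 and 2.33 higher (adjusted p = 0.0497 and 0.0456). miR-375 (1.32) and miR-376b# (0.96) also passed (adjusted p = 0.0456 and 0.0332). For miR-467b, miR-375 and miR-376b# all WT values lay at the floor, so their differences are lower bounds. Each of the 9 lost its call in 1 or more of the fits that left out a sample.

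The assays that rose included some that did not move with the sample at all. WT replicate 2 came up earlier than the mean of WT replicates 1 and 3 by a median of 1.98 cycles over the 158 assays detected in all 3 (quartiles 1.76 and 2.16). In 7 assays this lead was under 0.5 cycles, a bound chosen after the values were seen; the highest of them was 0.46 and the next assay was at 0.80. They are miR-29b#, miR-34c#, miR-378, miR-467b, miR-673, miR-678 and miR-764-5p. In DicKO the lead of replicate 2 had a median of 2.98 cycles, and in these 7 it was -0.37 to 0.50. All 7 had an earlier mean Cq in DicKO (-1.78 to -0.07 cycles), and 3 were called higher. Of the other 78 assays detected in all 6 samples 2 had an earlier mean in DicKO, miR-29a at -0.63 and miR-155 at -0.18.

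**Figure D5:**
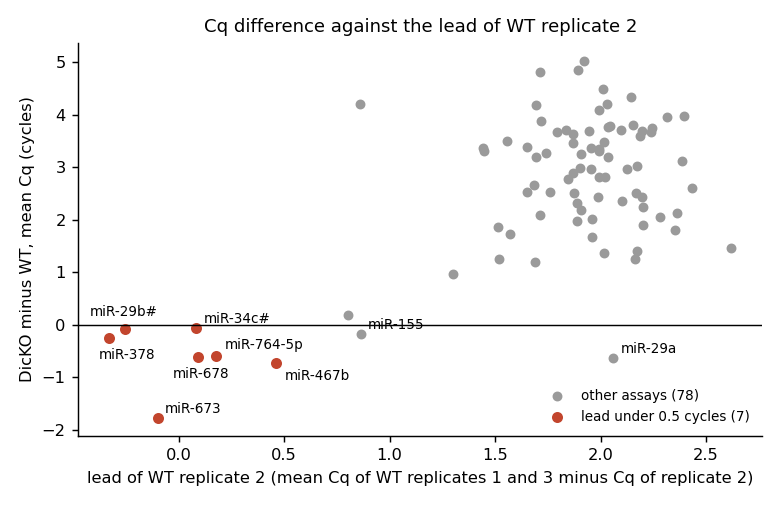
Difference in mean Cq, DicKO minus WT in cycles, against the lead of WT replicate 2 in cycles (mean Cq of WT replicates 1 and 3 minus that of replicate 2), for the 85 assays detected in all 6 samples. The 7 assays with a lead under 0.5 cycles all lie below 0, while miR-29a, with a lead like that of most assays, also lies below 0.

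Markers of other cell types in or near the retina were summed, but they cannot give the makeup of the samples by themselves. Each marker is itself a mature miRNA, so loss of Dicer1 could change its level with no change in cells. In bulk tissue, fewer cells of a type and less RNA per cell cannot be told apart either. Summed levels are linear, with 1 the level of the 61-assay mean, so a marker delayed less than those assays reads as higher. The 4 photoreceptor assays summed to 7.93 to 9.43 in WT and 4.91 to 6.68 in DicKO, with miR-182 the leading member. Neuronal markers, with 4 of 6 detected, summed to 1.18 to 1.602 in WT and 2.03 to 4.29 in DicKO, and markers of white blood cells and microglia (5 of 7 detected) to 0.176 to 0.184 and 0.383 to 0.833. In none of these 3 lists did the groups overlap. Single assays often separated too: in unscaled Cq, 43 of 85 were later without overlap, and 4 earlier. Those counts hold the common shift, which the sums do not, so they are not a background share for the sums. How often single assays or other lists of assays would separate the groups in relative level was not tested. In the photoreceptor list only miR-182 was called lower, and that call passed in 0 of the 6 fits that left out a sample. The relative differences of miR-183, miR-96 and miR-183# were 1.14, 0.80 and -0.10, none called. Of the 3 neuronal assays tested in relative level, miR-124a and miR-138 were called higher, each in only 2 of those 6 fits. The third, miR-129-3p, was not called (limma, adjusted p = 0.105). miR-128a was not tested there and was later in unscaled Cq, by 2.68 cycles (limma, adjusted p = 0.0392). Of the white blood cell and microglia assays, 0 of 4 tested were called on either scale, against 36.1% in relative level and 61.5% in unscaled Cq over all assays. In the relative fit all WT values of these 4 lay at the floor.

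Pigment epithelium, ciliary body and lens markers (4 of 5 detected) summed to 33.7 to 52.2 in WT and 40.4 to 53.6 in DicKO, and endothelial markers (2 of 2) to 0.232 to 0.330 and 0.108 to 0.379, with overlap in both. All 9 epithelial assays and the 1 red blood cell assay were undetermined in all 6 samples. Of 9 pericyte and fibroblast assays, 2 were detected, and of 7 muscle assays, 3. The part of cell makeup in the changes of single miRNAs was not tested.

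Whether loss of Dicer1 acts differently beside loss of Rb and p107 was tested as an interaction, (DicKO minus WT) minus (DKO_DicKO minus DKO), on the relative level. Of 135 assays tested in limma, 8 (5.93%) differed at an adjusted p under 0.05, 4 in each direction; without DKO replicate 3 there were 5. For miR-365 and miR-497, 2 of the 8, all DicKO and all DKO_DicKO values lay at the floor, so the difference between the Dicer1 effects was not measured. miR-29a had the largest difference: it was 3.50 higher in DicKO than in WT, but 1.01 lower in DKO_DicKO than in DKO, a difference of 4.51 (SE 0.77; adjusted p = 0.00628). In the DKO samples it read 24.0, 22.35 and 23.6, earlier than in any WT sample. In the 4 DKO_DicKO samples it read 25.1, 26.5, 29.1 and 27.0.

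miR-181a was lower without Dicer1 in the WT background (-1.10) and 0.30 higher in the Rb and p107 background. In unscaled Cq, none of 170 assays tested differed between the backgrounds (0 by the limma fit; 2 at an unadjusted p under 0.05).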

How the data were processed

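Stem-loop RT-qPCR of total RNA (522 primers, 14 pre-amplification cycles, per the labels' protocols) gave 1 Cq per assay and sample. The deposited table holds Cq values that its name gives as not normalized; their threshold and software are not given in the sources used here. Its 10 columns without a sample name were not used. Cq over 32 or undetermined counted as not detected; the first set had 0 values over 32. Fits ran in limma 3.58.1 under R 4.3.3 (lmFit, contrasts.fit, eBayes) over all 13 samples of the first set, two-sided, with Benjamini-Hochberg adjustment over assays tested (detected in all samples of 1 compared group); an assay at the floor throughout was dropped. The fit was tested on simulated data. Named assays are up to 6 per list by WT Cq, the 10 largest calls each way, the 10 earliest in WT and the 10 earliest lost, plus those called in the interaction. The members and lists were chosen with earlier results of these data known. Sequences came from RefSeq (GRCm38.p6), which matched 90 of 98 names looked up.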

Additional observations from a re-analysis of the deposited data

Results flagged for a closer look

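The effect of Dicer1 loss on the relative level differed between the WT background and the Rb and p107 background for 8 assays (limma interaction, adjusted p under 0.05; values are log2 differences of the 2 effects). For 4 the effect was more positive in the WT background: miR-29a at 4.51 (3.50 against -1.01; adjusted p = 0.00628), miR-497 at 1.47 (-0.49 against -1.96; adjusted p = 0.00628), miR-195 at 1.39 (0.44 against -0.95; adjusted p = 0.0265) and miR-365 at 1.31 (-0.21 against -1.53; adjusted p = 0.00471). For 4 it was more negative there: miR-296 at -1.66 (-0.60 against 1.06; adjusted p = 0.00668), miR-218 at -1.51 (-0.40 against 1.10; adjusted p = 0.035), miR-744 at -1.48 (-1.05 against 0.42; adjusted p = 0.0131) and miR-181a at -1.39 (-1.10 against 0.30; adjusted p = 0.00668). For miR-365 and miR-497 all DicKO and all DKO_DicKO values lay at the floor, so these 2 values equal the difference between DKO and WT (-1.41 against -2.73, and -0.98 against -2.45), and say nothing of Dicer1 acting differently. All DicKO values of miR-744 lay at the floor too, with its DKO mean at -2.82, near the floor of -2.94. WT and DicKO, with 3 samples each, were not tested for single outlying samples.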

How the results depend on the processing

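Over the alternatives to the relative-level comparison, 48 calls became 25 when only the 61 assays detected in every sample were tested and 26 with miR-720 as reference, of which 23 and 19 were among the 48. Leaving out 1 of the 6 samples, or DKO replicate 1 and DKO_DicKO replicate 4 together, gave 25 to 67 calls. With undetected values left missing, 24 were lower and 21 higher, and with undetected values at each sample's own limit, 30 lower and 22 higher. miR-375, 1 of the 10 higher calls, had a difference of 0 with a limit of Cq 30. Of the 99 later assays in unscaled Cq, 54 were among the 59 called with undetected values missing and 40 among the 45 called when only assays detected in every sample were tested; leaving out 1 sample gave 31 to 133. The cause of these shifts was not tested, except that fewer assays were tested in both. Of the named calls, 15 of 31 lower and 1 of 10 higher in relative level, and 25 of 46 later in Cq, passed in every fit that left out a sample.

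The interaction gave 5 to 10 calls when 1 of the 13 samples was left out, and 0 in unscaled Cq (lowest adjusted p = 1.00). Differences in detected assays and in mean Cq kept their direction throughout (-50 to -90.5 assays and 2.01 to 3.84 cycles when 1 sample was left out).

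Deviations of same-numbered WT and DicKO samples from their group means correlated at 0.06, 0.66 and 0.49. WT replicates 2 and 3 correlated best with their own number. WT replicate 1 correlated best with DicKO replicate 3 (0.10), and DicKO replicate 1 with WT replicate 3 (0.32). The main fits did not take the shared numbers as pairs, and these values do not settle whether they are. With the replicate block, 56 assays were called in relative level, 118 in unscaled Cq and 10 in the interaction. Of the 56, 38 were lower and 18 higher, against 38 lower and 10 higher without the block. The mean difference in detected assays stayed -68. With 3 samples a group, the exact tests cannot go below p = 0.1.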
